A study of Rattus norvegicus with 30 samples.

Results

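RNA of 7 genes that move iron or zinc across membranes, or set how much of either metal a cell holds, was followed in cultured rat liver cells given Dioctyl Phthalate, a plasticizer. The genes were Steap4, Hamp, Tfrc, Tf, Slc40a1, Slc39a14 and Slc30a1, taken as the probe sets that the array's gene table assigns to them, out of 14217 genes with a probe set of their own. Steap4 and its companions were picked with their differences from vehicle known, so those differences are described here and not tested. Tf is named only on 2 probe sets that the table assigns to Srprb and Tf together. The other 6 genes had 10 probe sets of their own, all above the low-signal limit, and belonged to the 10528 genes tested.

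The hepatocytes were of male Sprague Dawley rats, bought frozen, plated on collagen under a Matrigel overlay and dosed on day 3 of culture (age: not given). The 6 groups were vehicle (1% DMSO), 250 µM and 1000 µM Dioctyl Phthalate, each at 24 h and at 48 h. Each group held 5 culture wells with 1 array per well, 30 arrays in all. Replicates are numbered here, within each group, in the running order of the array titles. The labels describe the compound's dosing solutions as prepared in DMSO too. The sources do not say how many animals or vials supplied the wells, so errors and p-values measure the spread between wells. Cultured hepatocytes lack the blood supply, transferrin load and neighbouring cells of a liver, which limits them as a model of iron traffic.

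Hepatocytes take up transferrin-bound iron through the transferrin receptor Tfrc and free iron and zinc through the importer Slc39a14. Free iron is reduced before import, and Steap4 is a reductase of iron and copper. Ferroportin, encoded by Slc40a1, is the known cellular iron exporter, and hepcidin, the peptide encoded by Hamp and secreted by hepatocytes, binds ferroportin and sends it for degradation. Hamp is known to be induced by bone morphogenetic proteins through SMAD proteins and by interleukin-6 through STAT3. Slc30a1 is a zinc exporter of the plasma membrane, and Tf encodes transferrin, the iron carrier of plasma.

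Matches to the motifs defined below lay upstream of Tfrc, Tf, Steap4, Hamp and Slc30a1. The stretches of Steap4, Hamp and Slc30a1 are shown as examples. They are the 250 bases before the start site in RefSeq on rat assembly GRCr8, 5' to 3' on the gene's strand. RefSeq windows were matched for 6 of the 7 genes. Capitals mark matches, on either strand, to the STAT element TTCNNNGAA, the bone morphogenetic protein element GGCGCC, or the metal response core spelled TGCACNC or TGCGCNC.
Steap4, chr4:27054770-27055019, minus strand: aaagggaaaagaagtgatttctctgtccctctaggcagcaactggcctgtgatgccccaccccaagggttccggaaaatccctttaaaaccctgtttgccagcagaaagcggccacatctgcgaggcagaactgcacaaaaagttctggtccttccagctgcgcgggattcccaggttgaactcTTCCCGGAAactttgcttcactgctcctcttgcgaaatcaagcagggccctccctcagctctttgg
Hamp, chr1:95300272-95300521, minus strand: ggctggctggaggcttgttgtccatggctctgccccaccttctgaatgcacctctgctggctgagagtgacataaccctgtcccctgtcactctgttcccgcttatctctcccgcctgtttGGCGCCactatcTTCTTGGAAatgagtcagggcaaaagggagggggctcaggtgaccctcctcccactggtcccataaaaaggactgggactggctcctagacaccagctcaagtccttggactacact
Slc30a1, chr13:106021769-106022018, plus strand: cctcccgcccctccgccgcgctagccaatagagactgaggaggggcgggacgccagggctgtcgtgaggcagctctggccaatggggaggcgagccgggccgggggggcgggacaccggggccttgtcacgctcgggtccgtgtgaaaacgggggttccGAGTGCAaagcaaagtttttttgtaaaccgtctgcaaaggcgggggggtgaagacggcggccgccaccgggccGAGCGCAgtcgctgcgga
The Steap4 window held 1 STAT match at positions -66 to -58 from the start. That of Hamp held a STAT match at -117 to -109 and a bone morphogenetic protein match just upstream, at -129 to -124. Slc30a1 had a metal core of each spelling, both on the opposite strand, at -91 to -85 and -18 to -12. Of the others, Tfrc held 3 metal cores of the second spelling, the last pair overlapping, and 1 GGCGCC, Tf held 2 metal cores of the first spelling, and Slc40a1 held none of these letters. Such letters are common: among 33469 RefSeq windows of 250 bases before to 50 after a start, 8.87% held the STAT letters, 11.0% the GGCGCC and 24.2% a metal core of either spelling. A match describes the sequence and does not show that a factor binds there.

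All 10 hepatocyte markers examined were above the low-signal limit (log2 signal 7.88), and their summed signal ran from 314238 to 508715 over the arrays. Above the limit were also 5 of 10 Kupffer cell and leukocyte markers, 2 of 7 endothelial, 6 of 8 stellate and 1 of 5 cholangiocyte markers. Of these listed markers 8, 5, 8 and 4 had a probe set of their own. Of all 14217 genes with one, 10528 lay above the limit. RNA in bulk wells cannot separate fewer cells from less RNA per cell. In vehicle at 48 h, replicates 1, 2, 3 and 5 stood apart in the beta-actin log2 ratio of 3' to 5' signal, a sign of shortened RNA: 2.44, 1.74, 1.70 and 1.66. Replicate 4 had 1.04, and the 25 arrays of the other groups had 0.977 to 1.51. The Gapdh ratio was 0.28, 0.22, 0.24 and 0.23 in replicates 1, 2, 3 and 5 and 0.13 in replicate 4. It was 0.08 to 0.19 in the other groups, a shift in the same direction but smaller. A 48 h call against vehicle lost without those 4 arrays, or with the beta-actin ratio as a covariate, is marked. The mark stands beside the gene or later among the genes of its list. Leaving those 4 out leaves a single vehicle array.

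Steap4, a membrane reductase of iron and copper, had the largest differences from vehicle among the 6 genes. In vehicle its log2 signals were 13.62, 13.58, 13.62, 13.50 and 13.23 at 24 h and 13.45, 13.81, 13.60, 13.94 and 13.65 at 48 h. At 250 µM they were 11.78, 11.82, 11.53, 12.02 and 11.55 at 24 h and 11.04, 11.33, 11.07, 11.26 and 10.96 at 48 h. At 1000 µM they were 11.80, 11.72, 11.85, 11.93 and 12.17 at 24 h and 11.32, 11.48, 11.71, 11.85 and 11.25 at 48 h. Every treated array lay more than 1 log2 unit below every vehicle array of its time. The log2 differences from vehicle (± SE from limma, n = 5 arrays a group throughout) were -1.77 ± 0.11 at 250 µM and -1.62 ± 0.11 at 1000 µM after 24 h, 3.41-fold and 3.06-fold lower. After 48 h they were -2.56 ± 0.11 and -2.16 ± 0.11, 5.88-fold and 4.48-fold lower. Against replicate 4 alone the 48 h differences were -2.80 and -2.41, so they were at least as large without the 4 arrays.

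**Figure D1:**
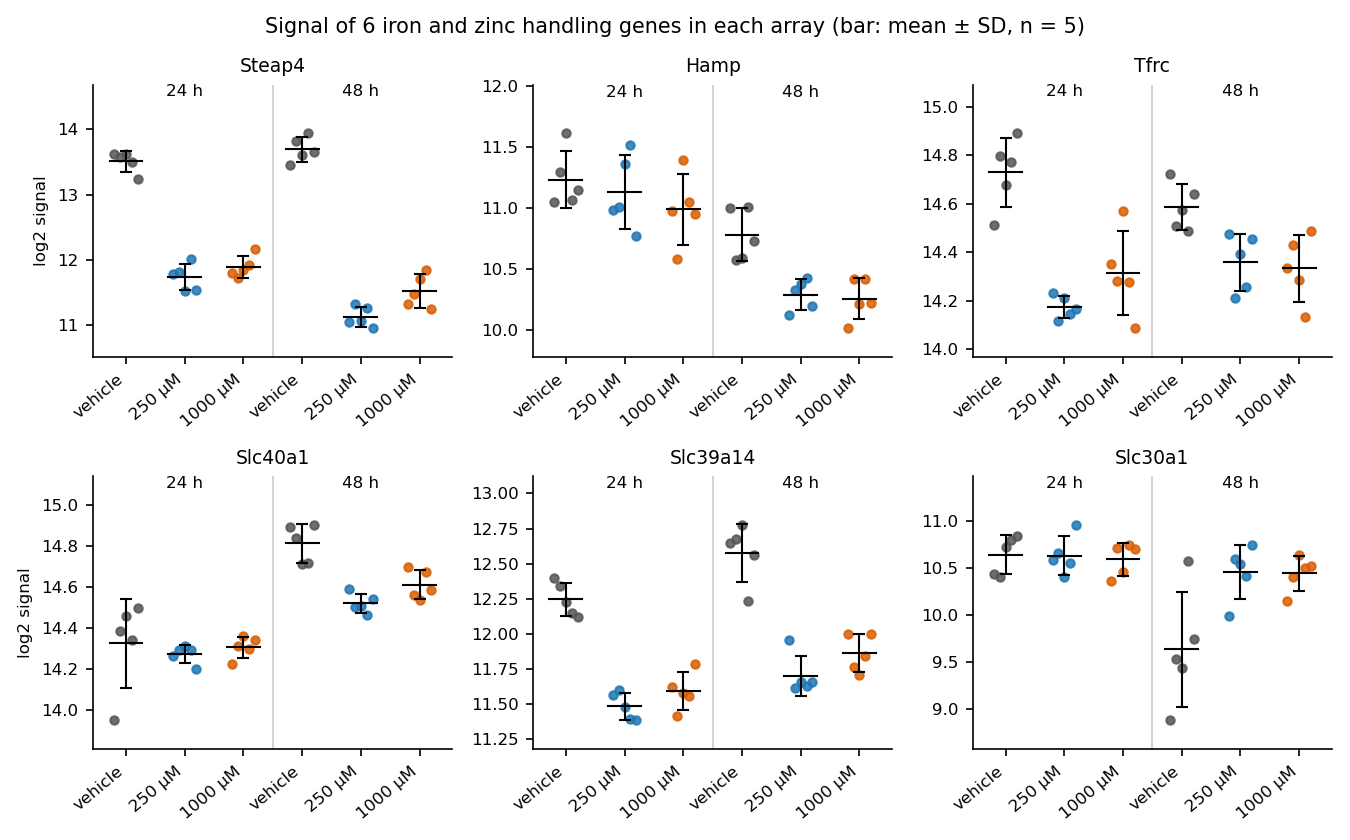
Log2 signal of each gene in every array (points), by dose and time, with the group mean and SD (bars, n = 5); each panel has its own scale. Steap4 and Slc39a14 lie below vehicle in all treated arrays, and Slc30a1 stands apart in vehicle at 48 h, where 4 of 5 arrays lie between 8.89 and 9.75.

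Under the compound Steap4 was lower at 48 h than at 24 h. This comparison uses the treated arrays whose differences from vehicle were known at the choice of genes, so it is not independent of that choice. From 24 to 48 h Steap4 fell by 0.61 ± 0.11 at 250 µM (adjusted p = 1.9e-04), with all 48 h arrays below all 24 h arrays. At 1000 µM it fell by 0.37 ± 0.11 (adjusted p = 0.0187), with overlapping arrays; without 1000 µM replicate 1 or 5 at 48 h or replicate 5 at 24 h the adjusted p was 0.0660, 0.0754 or 0.0678. In vehicle it was 0.18 ± 0.11 higher at 48 h (adjusted p = 0.241). The time differences under the compound minus those in vehicle were -0.79 ± 0.16 and -0.55 ± 0.16, given without a test since they contain the differences from vehicle. No difference between the doses passed the test: 1000 minus 250 µM was 0.15 at 24 h (95% interval -0.07 to 0.38, adjusted p = 1) and 0.39 at 48 h (0.16 to 0.62, unadjusted p = 0.00139, adjusted p = 0.167).

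Over the 30 arrays, the signals most like that of Steap4 were those of Lurap1l (Pearson r = 0.979), Apoa5 (0.970), an apolipoprotein of triglyceride-rich lipoproteins, Ivns1abp (0.969), B3galnt1 (0.968), a glycosyltransferase, Pmp22 (0.965) and Tpm4 (0.962), a tropomyosin. Most opposed were Hacl1 (-0.982), a peroxisomal lyase of fatty acid alpha-oxidation, Fabp1 (-0.979), the liver fatty acid-binding protein, and Spc24 (-0.976), a kinetochore subunit. These arrays share the 6 groups, so the correlations mainly repeat which groups are high and low, and they are descriptions. Among the metal genes themselves Slc39a14 followed Steap4 most closely (r = 0.807), and the pair Slc39a14 and Slc30a1 was the most opposed (-0.688).

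Hamp differed from vehicle at 48 h and not clearly at 24 h. In vehicle its log2 signals were 11.05, 11.30, 11.62, 11.07 and 11.15 at 24 h and 11.01, 10.57, 10.59, 11.01 and 10.73 at 48 h. At 250 µM they were 10.98, 11.01, 11.37, 11.52 and 10.77 at 24 h and 10.12, 10.33, 10.38, 10.43 and 10.20 at 48 h. At 1000 µM they were 10.97, 10.58, 11.40, 11.05 and 10.96 at 24 h and 10.02, 10.42, 10.21, 10.42 and 10.23 at 48 h. Treated and vehicle arrays overlapped at 24 h and did not overlap at 48 h, where all treated arrays were lower. The differences from vehicle were -0.10 ± 0.14 and -0.24 ± 0.14 at 24 h for 250 and 1000 µM, and -0.49 ± 0.14 and -0.53 ± 0.14 at 48 h. Against replicate 4 alone the 48 h differences were -0.72 and -0.76.

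Hamp also fell with culture time in each condition, all 48 h arrays lying below all 24 h arrays. The fall was 0.84 ± 0.14 at 250 µM (adjusted p = 3.2e-05) and 0.73 ± 0.14 at 1000 µM (adjusted p = 2.1e-04). In vehicle it was 0.45 ± 0.14 (adjusted p = 0.0123), and this call was lost without vehicle replicate 3 at 24 h (adjusted p = 0.0550), with the array medians centred (0.0694) and with the actin ratio as covariate (0.0709). The vehicle difference was -0.22 without the 4 arrays (adjusted p = 0.850). The summed Kupffer cell and leukocyte markers were 20894 to 27745 in vehicle at 24 h and 19984 to 22008 at 48 h. At 250 µM they were 22684 to 25630 at 24 h and 22665 to 24302 at 48 h. At 1000 µM they were 23655 to 26916 and 20277 to 22944.5. Their part in the time differences was not tested. Nearest to Hamp over the arrays were Ifitm3 (r = 0.905), an interferon-induced membrane protein, and Eif4e2 (0.904).

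Tfrc, which brings in iron-loaded transferrin, was read by 2 probe sets that differed at 48 h. The first, of higher signal, gave 14.51, 14.80, 14.68, 14.77 and 14.89 in vehicle at 24 h, 14.23, 14.12, 14.21, 14.15 and 14.17 at 250 µM and 14.35, 14.28, 14.57, 14.28 and 14.09 at 1000 µM. The differences from vehicle at 24 h were -0.55 ± 0.08, without overlap, and -0.42 ± 0.08, with overlap. At 48 h vehicle gave 14.72, 14.51, 14.57, 14.49 and 14.64, 250 µM gave 14.21 to 14.48 and 1000 µM 14.13 to 14.49. Those differences were -0.23 ± 0.08 and -0.25 ± 0.08, just clear of overlap on the deposited scale and overlapping once array medians were centred. They were -0.13 and -0.15 without the 4 arrays and -0.09 and -0.15 with the actin covariate. The second probe set differed from vehicle by -0.72 ± 0.13 and -0.47 ± 0.13 at 24 h, without overlap, but by 0.35 ± 0.13 and 0.28 ± 0.13 at 48 h, with overlap. Its vehicle signals at 48 h were 11.84, 12.71, 12.78, 13.12 and 12.73, and the lowest came from replicate 1, whose actin ratio was the highest. Its 48 h differences were -0.13 and -0.20 without the 4 arrays and -0.10 and -0.05 with the covariate, so their sign turned with those arrays (probe sets were refitted this way after the data had been seen). With time, the first probe set passed no test in any condition (adjusted p = 0.160 in vehicle, 0.109 at 250 µM and 0.901 at 1000 µM), though its 0.18 at 250 µM was called when only the compared groups were fitted (adjusted p = 0.0238). Its vehicle difference of -0.14 became -0.20 and was called without vehicle replicate 1 at 24 h (adjusted p = 0.0461), and -0.28 with the actin covariate (adjusted p = 0.0495). The second probe set fell by 0.92 ± 0.13 in vehicle (adjusted p = 3.9e-06 over all probe sets), by 0.46 with the covariate (adjusted p = 0.00426) and by 0.44 without the 4 arrays (adjusted p = 0.0946). Closest to the first probe set were Cdo1 (r = 0.882), cysteine dioxygenase, and Pfkfb1 (0.871), a regulator of glycolysis.

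The 2 probe sets shared by Srprb and Tf disagreed throughout. One, with signals of 15.85 to 16.63, differed from vehicle by -0.09 to 0.01 over the 4 comparisons and overlapped in each. The other had 11.13 to 11.49 in vehicle at 24 h, 9.52 to 10.17 at 250 µM and 10.13 to 10.56 at 1000 µM. At 48 h vehicle gave 11.25 to 12.25, 250 µM 10.27 to 10.94 and 1000 µM 10.35 to 10.92. It was lower than vehicle in all treated arrays, 2.63-fold and 2.01-fold at 24 h, with differences of -1.27 ± 0.15 and -1.22 ± 0.15 at 48 h. Those became -0.76 and -0.71 without the 4 arrays and -0.96 and -0.99 with the covariate. Srprb encodes a subunit of the signal recognition particle receptor, and the table does not say which of the 2 genes each probe set reads, so neither value is given to transferrin.

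Slc40a1, the iron exporter, had 3 probe sets. The first gave vehicle signals of 13.95, 14.39, 14.46, 14.34 and 14.50 at 24 h and 14.89, 14.84, 14.71, 14.71 and 14.90 at 48 h. At 250 µM it gave 14.20 to 14.32 and 14.47 to 14.59, and at 1000 µM 14.23 to 14.36 and 14.54 to 14.70. Its differences from vehicle were -0.05 ± 0.07 and -0.02 ± 0.07 at 24 h, overlapping, and -0.29 ± 0.07 and -0.20 ± 0.07 at 48 h, not overlapping until array medians were centred. The 48 h values were -0.19 and -0.10 without the 4 arrays and -0.19 and -0.13 with the covariate. It rose from 24 to 48 h in vehicle by 0.49 ± 0.07 (adjusted p = 1.9e-06), at 250 µM by 0.25 ± 0.07 (adjusted p = 0.00857; 0.051 with array medians centred) and at 1000 µM by 0.30 ± 0.07 (adjusted p = 0.00109), with all 48 h arrays above all 24 h arrays. In vehicle without the 4 arrays the rise was 0.39 (adjusted p = 0.0964). The other 2 probe sets differed from vehicle by -0.05 to 0.11 (the second by -0.19 and -0.26 at 48 h without the 4 arrays). They passed no time test (lowest adjusted p = 0.175), so the called rise is that of 1 probe set. Time differences of the third in vehicle, at 250 and at 1000 µM lay in the same direction, at 0.19, 0.15 and 0.19 ± 0.10. Those of the second were 0.00, 0.07 and -0.01 ± 0.07. Nearest to the first were Appl2 (r = 0.914), an adaptor protein of endosomes, and Nipal2 (0.909).

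**Figure D2:**
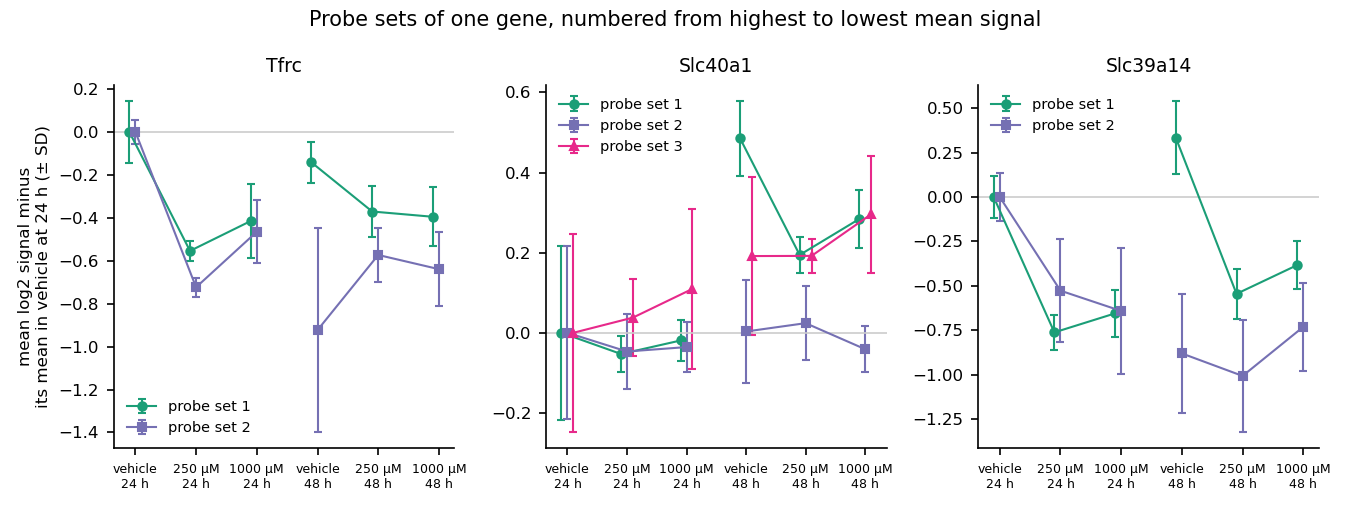
Mean log2 signal of each probe set of Tfrc, Slc40a1 and Slc39a14 minus its own mean in vehicle at 24 h (± SD, n = 5), by dose and time. Probe sets of a gene lie closer at 24 h and part most in vehicle at 48 h. There the second of Tfrc and of Slc39a14 are 0.92 and 0.88 below their 24 h values (0.44 and 0.38 without the 4 vehicle arrays of high actin ratio). Those of Slc39a14 part under the compound too: from 24 to 48 h the first and second changed by 0.22 and -0.48 at 250 µM and by 0.27 and -0.09 at 1000 µM.

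Slc39a14, the zinc and iron importer, was the only other gene of the 6 whose main probe set had all treated arrays below vehicle at both doses and both times. Its log2 signals in vehicle were 12.39, 12.34, 12.22, 12.14 and 12.12 at 24 h and 12.64, 12.67, 12.78, 12.23 and 12.56 at 48 h. At 250 µM they were 11.56, 11.59, 11.48, 11.39 and 11.38 at 24 h and 11.95, 11.61, 11.65, 11.62 and 11.65 at 48 h. At 1000 µM they were 11.62, 11.41, 11.57, 11.55 and 11.78, then 12.00, 11.76, 11.70, 11.84 and 12.00. The differences were -0.76 ± 0.09 and -0.66 ± 0.09 at 24 h and -0.88 ± 0.09 and -0.72 ± 0.09 at 48 h. Against vehicle replicate 4, the lowest vehicle array at 48 h, they were -0.54 and -0.37. The second, weaker probe set was lower at 24 h too, by -0.53 ± 0.18 and -0.64 ± 0.18 with overlap, but at 48 h it showed -0.13 ± 0.18 and 0.15 ± 0.18, which became -0.63 and -0.35 without the 4 arrays and -0.34 and -0.01 with the covariate.

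The 2 probe sets of Slc39a14 moved in opposite directions with time in vehicle: the first rose by 0.33 ± 0.09 (adjusted p = 0.00437) and the second fell by 0.88 ± 0.18 (adjusted p = 4.7e-04). Without the 4 arrays the first was at -0.01 and the second at -0.38, with a single vehicle array left at 48 h. With the actin ratio as covariate they were at 0.15 (adjusted p = 0.437) and -0.66 (adjusted p = 0.0846), opposite in sign and neither called. At 1000 µM the first rose by 0.27 ± 0.09 (adjusted p = 0.0274), a call lost on leaving out any of 5 arrays (adjusted p = 0.0522 to 0.0928; 1000 µM replicates 2, 3 and 4 at 24 h, 1 and 5 at 48 h), with array medians centred (0.165) and with the covariate (0.0561). At 250 µM the first was 0.22 ± 0.09 higher (adjusted p = 0.101) and the second 0.48 ± 0.18 lower (adjusted p = 0.0892). The signals nearest to the first were those of Arhgap42 (r = 0.960) and Lpin1 (0.958), a phosphatidate phosphatase that also acts in transcription.

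Slc30a1, the zinc exporter, was lower in vehicle at 48 h than anywhere else, in 4 of its 5 arrays. Vehicle signals were 10.44, 10.41, 10.72, 10.80 and 10.84 at 24 h and 8.89, 9.53, 9.44, 10.57 and 9.75 at 48 h. At 250 µM they were 10.41 to 10.96 and 9.99 to 10.74, and at 1000 µM 10.36 to 10.74 and 10.15 to 10.64. The differences from vehicle were -0.01 ± 0.18 and -0.05 ± 0.18 at 24 h and 0.83 ± 0.18 and 0.81 ± 0.18 at 48 h, with overlap in all 4 comparisons. The overlap at 48 h came from vehicle replicate 4, whose actin ratio was like that of the other groups. Against it alone the differences were -0.11 and -0.13, and with the ratio as covariate 0.13 and 0.30. In vehicle Slc30a1 fell from 24 to 48 h by 1.01 ± 0.18 (adjusted p = 1.2e-04), which became -0.07 without the 4 arrays (adjusted p = 0.971) and -0.30 with the covariate (adjusted p = 0.178). Under 250 and 1000 µM the time differences were -0.17 and -0.15 (adjusted p = 0.621 and 0.635). Golph3 (r = 0.924), a Golgi phosphoprotein, and Yipf4 (0.914) had the nearest signals; they were 1.07 and 0.67 above vehicle at 250 µM and 48 h, as against 0.15 and 0.12 at 24 h.

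**Figure D3:**
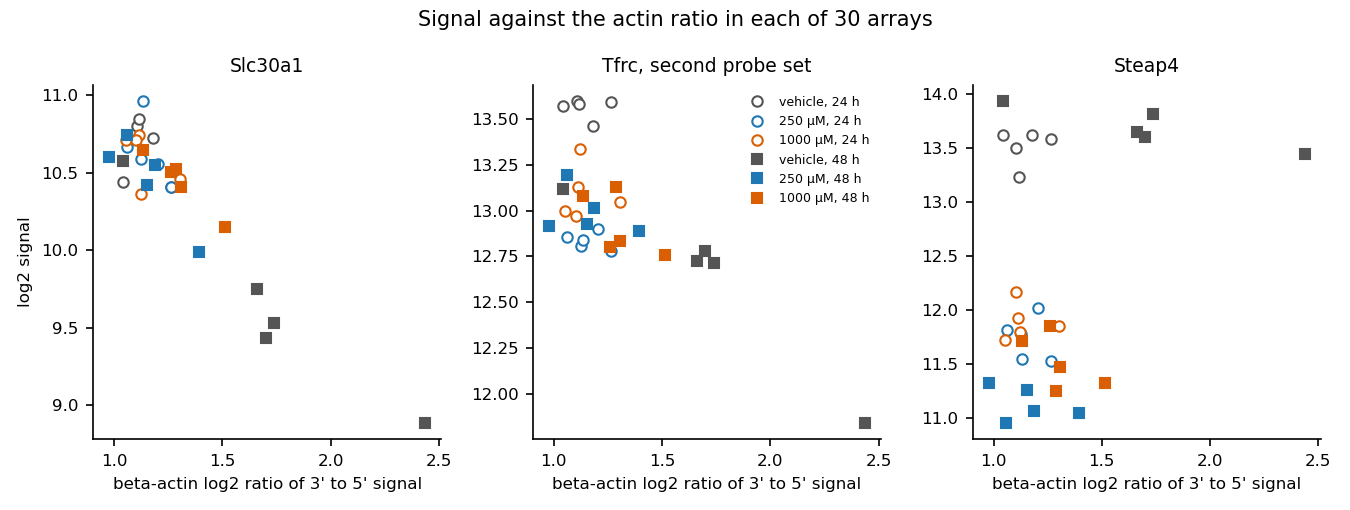
Log2 signal of Slc30a1, of the second Tfrc probe set and of Steap4 against the beta-actin log2 ratio of 3' to 5' signal, 1 point per array (30 arrays; colour is dose, open circles 24 h, filled squares 48 h). The 4 vehicle arrays at 48 h with ratios of 1.66 to 2.44 hold the lowest Slc30a1 signals, 8.89 to 9.75, while their Steap4 signals, 13.45 to 13.81, lie with the other vehicle arrays.

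Counted over the 6 with their own probe set, the treated arrays lay wholly below vehicle for 3 genes at 250 µM and 2 at 1000 µM after 24 h (8% and 7.81% of all tested genes), and for 5 and 5 after 48 h (15.1% and 10.9%). None lay wholly above (background 6.74%, 6.31%, 10.2% and 7.45%). The median differences were -0.33, -0.33, -0.39 and -0.39, against -0.03, -0.03, -0.07 and -0.04 for all genes. Both doses share the vehicle arrays of their time, and the genes were chosen on these contrasts, so nothing is read from these counts. With array medians centred the counts at 48 h were 3 and 3, Tfrc and Slc40a1 then overlapping.

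**Figure D4:**
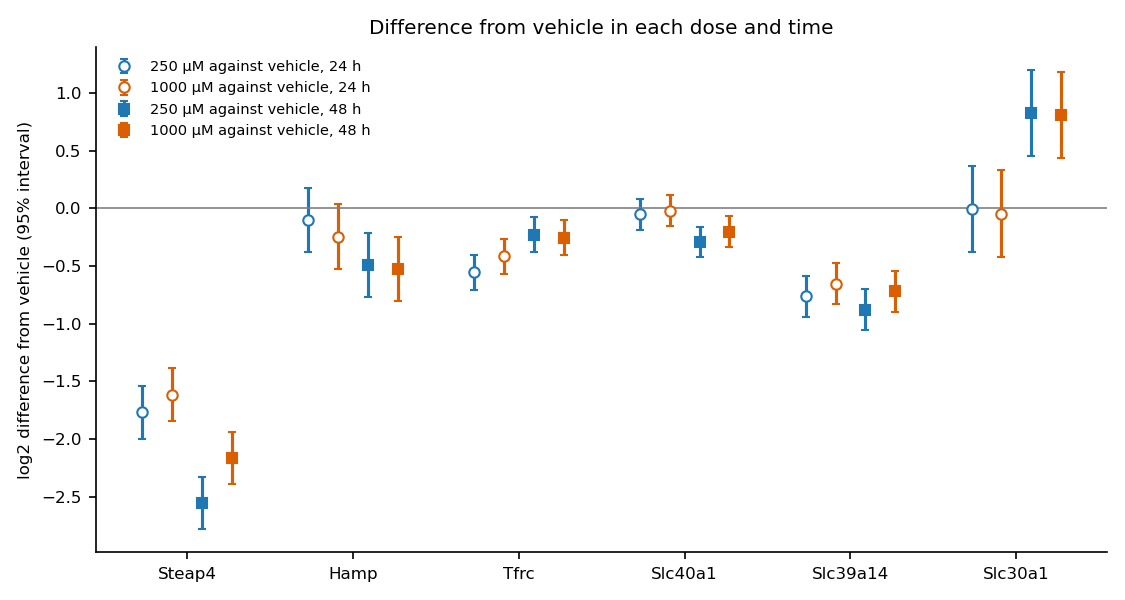
Log2 difference from vehicle of each gene at both doses and times, with its 95% interval from limma (n = 5 arrays a group); circles are 24 h, squares 48 h. Steap4 runs from -1.62 to -2.56, and the 48 h values of Slc30a1, 0.83 and 0.81, rest on the vehicle arrays with high actin ratios.

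The comparisons between doses and between times share their arrays with the differences from vehicle known at the choice of genes. Their p-values are therefore not independent of that choice. Of the 6 genes, 0 differed between 1000 and 250 µM at 24 h (0 at an unadjusted p under 0.05) and 0 at 48 h (1, Steap4). Few genes did so at all: 2 of 10528 (0.019%, all lower at 1000 µM) and 7 (0.0665%, of which 0.038% higher and 0.0285% lower). From 24 to 48 h 4 of 6 changed in vehicle, 2 in each direction (28.1% of all genes, 16.4% higher and 11.7% lower). At 250 µM 1 rose and 2 fell (13.4%, 6.86% higher and 6.52% lower), and at 1000 µM 2 rose and 2 fell (18%, 9.91% higher and 8.11% lower). Hamp fell and Slc40a1 rose in each of the 3, and Steap4 fell in the 2 that held the compound. Without the 4 arrays no gene of the 6 was called in vehicle, where a single 48 h array then stood against 5.

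The wider machinery was read from 5 lists of 114 other genes, of which 103 had a probe set of their own and 92 were tested. Here treated and vehicle were compared by limma's test. The lists too were chosen with earlier results of these data known, so their calls and p-values are not independent of that choice. The shares of all genes in brackets are also the background for each list below. Medians over all genes were -0.03 at both doses at 24 h and -0.07 and -0.04 at 48 h. At 24 h 16 of the 92 rose and 7 fell at 250 µM (8.31% and 11% of all genes, 19.3% together), and 17 rose and 8 fell at 1000 µM (8.28% and 11.2%, together 19.5%; 16 and 4 with array medians centred). At 48 h 24 rose and 22 fell at 250 µM (15.2% and 26%, together 41.2%), and 20 and 16 at 1000 µM (11.5% and 18.3%, together 29.7%). Without the 4 vehicle arrays 15 rose and 5 fell at 250 µM and 14 and 5 at 1000 µM.

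Genes that control hepcidin and sense iron changed in both directions. Of 23 tested, 3 rose and 3 fell at each dose after 24 h, and 4 rose and 7 fell at each dose after 48 h. The median was -0.05 and -0.09 at 24 h and -0.13 and -0.09 at 48 h. Il6r, the interleukin-6 receptor, fell by 0.88 ± 0.12 at 250 µM and 0.77 ± 0.12 at 1000 µM after 24 h and by 0.90 and 0.77 after 48 h (adjusted p at most 7.9e-06). Its signalling partner Il6st, or gp130, fell by 0.40 and 0.49 at 24 h and by 0.60 and 0.49 at 48 h (adjusted p at most 2.9e-06). Stat3 fell by 0.56 ± 0.11 and 0.63 ± 0.11 at 48 h and was at -0.22 and -0.23 at 24 h (adjusted p = 0.185 and 0.167). Without the 4 arrays the 48 h falls of Il6r and Stat3 at 250 µM were smaller, as given below. Socs3, an inhibitor induced by this pathway, passed no test, with differences of -1.06, -0.69, -0.12 and -0.27 ± 0.41 (lowest adjusted p = 0.0686).

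Id1, a target of bone morphogenetic proteins, rose by 1.02 ± 0.12 and 0.98 ± 0.12 at 24 h and by 1.10 and 1.00 at 48 h (adjusted p at most 1.4e-07), with all treated arrays above vehicle. Hjv, the co-receptor hemojuvelin, rose by 0.32 and 0.34 at 24 h and by 0.50 and 0.38 at 48 h (0.79 and 0.67 without the 4 arrays). Smad1, which carries the signal, fell by 0.26 and 0.25 at 24 h and 0.21 and 0.16 at 48 h, and Neo1, a hemojuvelin-binding receptor, fell by 0.61 and 0.54 at 48 h. Smad1 was not called in any of the 4 comparisons with array medians centred. At 48 h it was not called with the actin covariate either (-0.16 and -0.13), nor without the 4 arrays (-0.14 and -0.09). Smad6 and Smad7, other targets, passed no test (-0.88 to 0.35, SE 0.40 and 0.35). Id1 was higher in the same arrays in which Hamp was lower at 48 h. At 24 h Id1 was higher too, while Hamp overlapped vehicle, at -0.10 (250 µM) and -0.24 (1000 µM). Any link between Id1 and Hamp was not tested.

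Aco1 and Ireb2 encode the iron regulatory proteins, which bind iron-responsive elements of RNA. Aco1 rose by 1.06 ± 0.09 and 0.99 ± 0.09 at 24 h and by 0.92 and 0.93 at 48 h (adjusted p at most 1.9e-09), all treated arrays lying above vehicle. Ireb2 rose by 0.73 ± 0.14 and 0.72 ± 0.14 at 48 h and was 0.35 higher at both doses at 24 h (adjusted p = 0.0734 and 0.0733). Without the 4 vehicle arrays Aco1 was 1.48 and 1.49 higher at 48 h and Il6st remained called, while Il6r, Stat3, Neo1 and Ireb2 did not pass, at -0.55, -0.15, -0.36 and 0.48 for 250 µM. Ireb2 was not called at 250 µM with the covariate either (0.35, adjusted p = 0.0553).

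Among 20 other genes of iron uptake, reduction, storage and export, 2 rose and 2 fell at each dose after 24 h, and 4 rose with 6 and 4 falling after 48 h. The list's median was -0.03 and -0.10 at 24 h and -0.03 and 0.01 at 48 h. Lrp1, the receptor for the haem carrier haemopexin among other ligands, rose by 0.73 ± 0.14 and 0.51 ± 0.14 at 24 h and by 0.42 and 0.51 at 48 h (0.98 and 1.07 without the 4 arrays). Slc11a2, a ferrous iron importer, rose by 0.37 and 0.24, then by 0.60 and 0.64. Cp, the ferroxidase ceruloplasmin, fell by 0.41 ± 0.08 and 0.48 ± 0.08, then by 0.98 and 0.78 (adjusted p at most 2.5e-04). Slc39a8, the importer most closely related to Slc39a14, fell by 0.24 and 0.27, then by 0.49 and 0.33 (-0.28 and -0.13, not called, without the 4 arrays, and not called at 24 h with array medians centred).

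At 48 h Hmox1, haem oxygenase, rose by 0.37 and 0.29, and Pcbp2, an iron chaperone, fell by 0.39 and 0.29; without the 4 arrays they stood at 0.13 and 0.05 and at -0.14 and -0.03, and neither was called. Relatives of Steap4 were read too. Steap3 fell by 0.82 ± 0.22 at 250 µM and 48 h and was at -0.51 at 1000 µM (adjusted p = 0.0891), Steap1 rose by 0.45 ± 0.17 at 1000 µM and 48 h, and Steap2 passed no test (-0.28 to 0.14, SE 0.28). Steap3 was not called with the covariate (-0.61, adjusted p = 0.115) or without the 4 arrays (-0.47, adjusted p = 0.552). Steap1 was not called with either (0.46 and 0.51, adjusted p = 0.0961 and 0.361), or with array medians centred (0.42, adjusted p = 0.0574). The difference between Steap4 and its relatives was not tested.

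Of 19 tested genes of mitochondrial iron, iron-sulfur clusters and haem, 8 rose and 0 fell at 250 µM and 7 and 0 at 1000 µM after 24 h, and 9 rose with 2 falling, and 7 with 1, after 48 h. Of all genes 8.31% and 8.28% rose and 11% and 11.2% fell at 24 h. At 48 h 15.2% and 11.5% of all genes rose and 26% and 18.3% fell. The list's median was 0.23 and 0.17 at 24 h and 0.17 and 0.21 at 48 h. For all genes the median was -0.03 at both doses at 24 h and -0.07 and -0.04 at 48 h. In haem synthesis Alas1, the rate-limiting enzyme, rose by 0.35 ± 0.07 and 0.25 ± 0.07 at 24 h and by 0.74 and 0.59 at 48 h. Alad, the next enzyme, rose by 0.47 and 0.37, then by 0.65 and 0.47. Uros, a later one, rose by 0.47 ± 0.15 at 250 µM and 24 h only by this test, with 0.31, 0.28 and 0.25 elsewhere (lowest adjusted p = 0.135). Blvrb, a reductase of haem breakdown products, rose by 0.39 and 0.31, then by 0.52 and 0.48. The 48 h rises of Blvrb (0.32 and 0.28) and that of Alad at 1000 µM (0.45) were not called without the 4 arrays, and Alas1 at 1000 µM and 24 h was not called with array medians centred.

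For clusters and import, Isca2, an iron-sulfur assembly factor, rose by 0.77 ± 0.16 and 0.75 ± 0.16 at 48 h, and Slc25a37, the carrier mitoferrin-1, rose by 0.36 ± 0.13 and 0.42 ± 0.13 at 24 h. At 250 µM and 48 h Abcb10, a mitochondrial transporter, fell by 0.69 and Fech, which inserts iron into haem, by 0.29; Abcb10 also fell by 0.47 at 1000 µM. With the covariate Abcb10 was called only at 250 µM (-0.36; -0.22 at 1000 µM), and Fech was not called then (-0.07) or with array medians centred. Without the 4 arrays neither was called, and 5 genes rose and 0 fell at 250 µM and 3 and 0 at 1000 µM, Alas1 and Isca2 among them.

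Zinc transporters and metallothioneins changed in both directions: of 19 tested, 2 rose and 1 fell at 250 µM and 3 and 2 at 1000 µM after 24 h, and 4 and 5, and 3 and 3, after 48 h. The median was -0.01 at both doses at 24 h and -0.10 and -0.01 at 48 h. Slc30a2, a vesicular zinc transporter, rose by 0.70 ± 0.11 and 0.89 ± 0.11 at 24 h and by 0.88 and 0.84 at 48 h (adjusted p at most 5.4e-06). Slc30a10, a manganese exporter of the same family, rose by 0.37 and 0.46, then by 0.71 at both doses. Slc39a6, a zinc importer, fell by 0.54 ± 0.12 and 0.52 ± 0.12, then by 1.03 and 0.84, and Slc39a4, another importer, rose by 0.43 and 0.38 at 48 h (0.64 and 0.59 without the 4 arrays). Slc30a6 rose by 0.31 ± 0.10 at 1000 µM and 24 h.

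Mtf1, the zinc-sensing factor that binds the metal response core, fell by 0.90 ± 0.14 and 0.73 ± 0.14 at 48 h, and was at -0.21 and -0.28 at 24 h. Without the 4 arrays it stood at -0.39 and -0.22 (adjusted p = 0.243 and 0.599). Of its known targets Mt2A fell by 0.25 ± 0.07 at 1000 µM and 24 h and by 0.21 and 0.29 at 48 h, with no call at 24 h with array medians centred, nor at 250 µM and 48 h with the covariate. Mt1 passed no test (-0.46 to 0.04, SE 0.20). Slc30a1, another, is given above. Slc30a4 fell by 0.61 ± 0.17 at 250 µM and 48 h and was at 0.0033 without the 4 arrays and -0.28 with the covariate, not called in either.

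The 11 copper genes bear on Steap4 as a copper reductase. The importer Slc31a1 rose by 0.34 ± 0.07 and 0.41 ± 0.07 at 24 h and by 0.26 and 0.29 at 48 h (0.45 and 0.47 without the 4 arrays, and not called at 48 h with array medians centred), and the chaperone Atox1 fell by 0.25 and 0.22, then by 0.18 and 0.27. Atox1 was called only at 1000 µM and 48 h with array medians centred, and not at 250 µM and 48 h with the covariate (-0.15, adjusted p = 0.0869). Atp7b, the copper exporter of hepatocytes, rose by 0.44 at 1000 µM and 24 h and by 0.54 and 0.34 at 48 h. The 48 h rises of Atp7b were not called with the covariate (0.43 and 0.26, adjusted p = 0.0519 and 0.244) or without the 4 arrays (0.45 and 0.25, adjusted p = 0.266 and 0.627), nor that at 1000 µM with array medians centred (0.30, adjusted p = 0.0719). Atp7a fell by 0.56 ± 0.15 and Cox11, a copper chaperone of cytochrome oxidase, rose by 0.35 ± 0.14 at 250 µM and 48 h; both stood at 0.11 without the 4 arrays, at -0.23 and 0.11 with the covariate, not called in either, and Cox11 was not called with array medians centred. In all, 1 rose and 1 fell at 250 µM and 2 and 1 at 1000 µM after 24 h, and 3 and 2, and 2 and 1, after 48 h, with medians of 0.05, 0.02, 0.11 and 0.04.

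**Figure D5:**
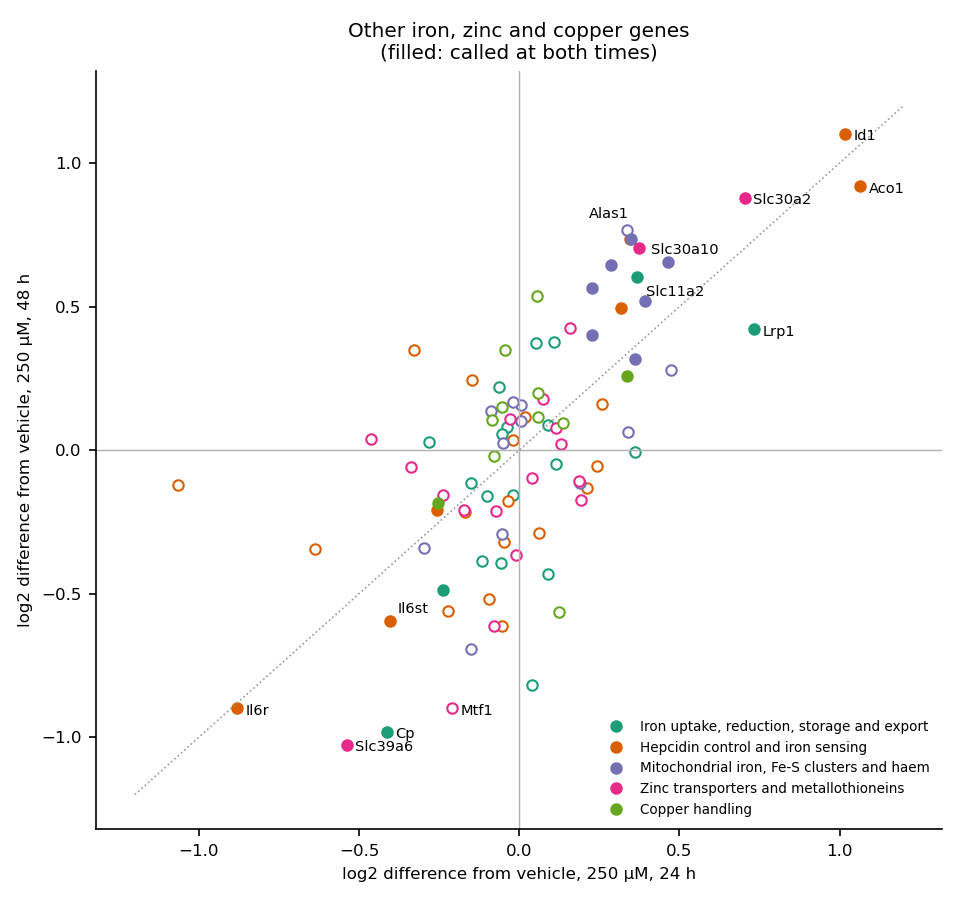
Log2 difference from vehicle at 250 µM of the 92 other iron, zinc and copper genes, 24 h across and 48 h upward, coloured by list; filled points were called at both times and the dotted line marks equal differences. Aco1 and Id1 lie near 1 at both times, Il6r near -0.90, and Cp and Slc39a6 lie further from 0 at 48 h.

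The difference at 250 µM depended on time for 10 of the 92 genes (4 higher and 6 lower at 48 h; 8.36% of all genes, 3.84% higher and 4.52% lower), and at 1000 µM for 0 (14 at an unadjusted p under 0.05; 0.969% of all genes, 0.522% higher and 0.446% lower). With the 4 arrays left out none of those 10 was called and Hjv alone was, and with array medians centred Cp alone was, so the count moved with those vehicle arrays and with the scaling.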

How the data were processed

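The authors deposited 1 table of linear intensity signals per probe set (31099 probe sets, 30 arrays); MAS5 is named in the submitters' processing notes with no version or setting. The mean trimmed by 2% at each end was 1500.6 to 1500.7 on every array. Here signals were read as log2(signal + 1), without further scaling (array medians 8.45 to 8.79). The 57 controls and the lowest 40% of probe sets by mean were left out (limit 7.88, a signal of 234). The platform table gave 20826 probe sets 1 gene, 436 several and 9780 none. The probe set of highest mean stood for a gene.

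Groups came from the labels. One limma fit (3.58.1, R 4.3.3) held 6 group means, with variances moderated along a mean trend on 24 residual degrees of freedom; calls are Benjamini-Hochberg adjusted p under 0.05 over 10528 genes, or over 18625 probe sets for second probe sets. The fit was tested on simulated data. The number of arrays limits the precision. Alternatives were the scaling, the filter, the pseudocount, the variance model, the probe set rule, the groups fitted, the actin ratio and arrays left out; for probe sets that did not stand for a gene the scaling, the actin ratio and the 4 vehicle arrays were added after the data were seen.

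The 7 genes, the lists and the tests were chosen with earlier results of these data known. Named list genes are, per list and comparison with vehicle, up to 3 called rises and 3 called falls of largest size, and for time dependence 2 per direction; likeness is Pearson's r over 30 arrays. Smad6, Smad7, Socs3, Steap2, Mt1 and, at some doses and times, other named genes were named for their role, with their values seen.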

Additional observations from a re-analysis of the deposited data

Results flagged for a closer look

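In 5 of 72 groups of 5 arrays, examined over the 12 probe sets of the metal genes, 1 array lay far from the other 4 by Dixon's test; chance gives about 1 in 20 groups. The second Tfrc probe set was lowest in vehicle replicate 3 at 24 h, at 13.46 against 13.57 to 13.60. The first Slc40a1 probe set was lowest in vehicle replicate 1 at 24 h, at 13.95 against 14.34 to 14.50. The third Slc40a1 probe set was highest in vehicle replicate 5 at 48 h, at 12.21 against 11.74 to 11.81, and lowest in 250 µM replicate 2 at 48 h, at 11.78 in a narrow group. The first Slc39a14 probe set was highest in 250 µM replicate 1 at 48 h, at 11.95 against 11.61 to 11.65.

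The signed difference from vehicle at 250 µM was compared between times by limma's test. It was higher at 48 h than at 24 h for Alas1 (0.39 ± 0.09, adjusted p = 0.0088) and Glrx5 (0.36 ± 0.08, adjusted p = 0.0028). It was lower for Mtf1 (-0.69 ± 0.20, adjusted p = 0.0281) and Atp7a (-0.69 ± 0.21, adjusted p = 0.0396). None of these was called with array medians centred, and the calls moved with the vehicle arrays of high actin ratio, as given above.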

How the results depend on the processing

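Under settings other than leaving out 1 array, 1940 values were counted as the same. A tested value counted so if it stayed on its side of the threshold, an untested one if it moved by under 1 SD, whatever its sign. Another 92 lost the call, 3 gained one, 46 untested values moved by more than 1 SD and 6 were counted as reversed. Only called values or differences without overlap could count as reversed. The second Tfrc probe set at 250 µM and 48 h, from 0.35 to -0.13 without vehicle replicates 1, 2, 3 and 5, counted as moved. Without vehicle replicates 1, 2, 3 and 5 at 48 h the list genes called were 20 at 250 µM and 19 at 1000 µM, in place of 46 and 36, and with the actin covariate 29 at 250 µM; fewer arrays give fewer calls, and the cause of the rest was not tested. Reversed without those arrays were Atp7a (0.11), Fech (0.13) and Slc30a4 (0.0033) at 250 µM and 48 h, Abcb10 (0.11) at 1000 µM and 48 h, Slc39a14 with time in vehicle (-0.0087) and the second Srprb and Tf probe set with time in vehicle (-0.066 in place of 0.45; 0.13 and not called with the covariate). Of the 6 metal genes, 4 were called with time in vehicle, 2 with the actin covariate and 0 without those arrays. With array medians centred 3 and 3 genes in place of 5 and 5 lay below vehicle at 48 h; a covariate gives no overlap of arrays, so that count was not run. Time dependence at 250 µM was called for 10 list genes, 1 with medians centred, 3 with the covariate and 1 without the arrays, and at 1000 µM for 0, 2 with quantile normalization and 1 with the covariate; the cause was not tested.

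Leaving out 1 array at a time, list genes called were 21 to 26 and 23 to 27 at 24 h and 41 to 47 and 32 to 39 at 48 h. Metal genes without overlap between treated and vehicle arrays, in either direction, were 3 to 4 and 2 to 3 at 24 h. At 48 h they were 5 to 6 for both doses. The count of 6 came without vehicle replicate 4, where Slc30a1 lay wholly above the remaining vehicle arrays. Those called with time were 3 to 5 in vehicle (3 without vehicle replicate 3 at 24 h, 5 without replicate 1 at 24 h), 3 to 3 at 250 µM and 2 to 4 at 1000 µM (2 without 1000 µM replicate 1 or 5 at 48 h), and between doses 0 to 0. Time dependence was called for 6 to 25 list genes at 250 µM (25 without vehicle replicate 4 at 48 h, 18 without vehicle replicate 1 at 24 h, 6 without vehicle replicate 1 or 3 at 48 h) and 0 to 2 at 1000 µM (2 without vehicle replicate 4 at 48 h). The titles number the 30 arrays in a single run that cycles through the 6 groups, and give no replicate number shared between groups. Whether a cycle marks a batch or a pairing of wells is not stated, so no paired analysis was run.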
